A study of Mus musculus with 2 samples.

Results

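The Homer genes encode a small family of scaffold proteins of the postsynaptic density, and mice have 3 of them, Homer1, Homer2 and Homer3. They were picked by gene symbol from the gene table and from both transcript tables, which gave 3 of 55536 annotated genes and 29 of 141767 annotated transcripts in each library. Of the 29 transcripts, 12 belong to Homer1, 9 to Homer2 and 8 to Homer3. Total RNA had been sequenced from the hippocampus of male mice of the strain B6CASTF1/J, an F1 hybrid of a laboratory strain and a wild-derived strain, at 25 days of age. No treatment or engineered allele is named, and there is 1 group with 2 biological replicates, each a library from 300 ng of RNA. The labels place the tissue in a layer of the hippocampus and give both replicates the same donor identifier but separate sample identifiers, so whether they came from separate animals is not settled. With 1 group, no condition could be compared and no test was made. Every value below is a level in a library, and every mean ± SD is over n = 2.

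A long Homer protein has an N-terminal EVH1 domain, which binds a proline-rich motif in its partners, and a C-terminal coiled coil through which Homer proteins join into multimers. In this way it ties group I metabotropic glutamate receptors to IP3 receptors in the endoplasmic reticulum and to the Shank scaffold below the synapse. Short Homer1 proteins, of which Homer1a is the best known, keep the EVH1 domain but lack the coiled coil. Neuronal activity induces them in the hippocampus, and they compete with the long forms for the same partners. Which transcript a neuron makes from Homer1 is therefore the point of interest in this family, and the annotation separates the forms by where the transcript ends.

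The first sequences show what the family shares. Each gene has an exon of 157 bases that is the first one coding along its whole length and encodes the beginning of the EVH1 domain. It lies at chr13:93341756-93341912 on the plus strand in Homer1, at chr7:81649554-81649710 on the minus strand in Homer2 and at chr8:70285394-70285550 on the plus strand in Homer3, in mm10. The 3 sequences, from the annotated transcripts, are written from 5′ to 3′ with the bases common to all 3 genes in capitals:
Homer1, exon 2: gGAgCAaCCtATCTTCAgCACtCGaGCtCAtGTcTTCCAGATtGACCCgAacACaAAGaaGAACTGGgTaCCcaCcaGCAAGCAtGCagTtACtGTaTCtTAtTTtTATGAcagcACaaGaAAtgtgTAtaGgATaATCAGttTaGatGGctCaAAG
Homer2, exon 2: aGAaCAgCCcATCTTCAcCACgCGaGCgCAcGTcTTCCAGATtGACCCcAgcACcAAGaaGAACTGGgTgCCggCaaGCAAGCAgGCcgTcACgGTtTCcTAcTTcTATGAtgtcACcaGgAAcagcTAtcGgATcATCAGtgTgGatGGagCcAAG
Homer3, exon 3: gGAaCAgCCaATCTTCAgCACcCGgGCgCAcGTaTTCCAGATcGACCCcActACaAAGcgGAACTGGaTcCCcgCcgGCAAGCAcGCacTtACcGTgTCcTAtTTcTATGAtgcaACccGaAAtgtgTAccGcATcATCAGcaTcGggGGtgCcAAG

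Of the 157 bases, 102 were the same in all 3 genes. Between pairs, 75.2% of bases matched for Homer1 and Homer2, 73.2% for Homer1 and Homer3, and 74.5% for Homer2 and Homer3. The next exon, 132 bases in each gene, matched at 73.5% to 78.8% of its bases. The 2 exons that open the tail also have the same lengths in the 3 genes, 157 and 111 bases, but matched less closely. The tail exon of 157 bases matched at 46.5% to 58.0% and that of 111 bases at 44.1% to 49.5%. Both head exons compared thus matched more closely than both tail exons compared. These stretches could in principle draw reads from one another, and the deposited posterior SD of the count, which measures how uncertainly reads were shared between genes, was 0 for all 3 genes in both libraries.

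The second set shows where the Homer1 transcripts part. All of the forms below run together to the end of exon 5, at chr13:93356079 on the plus strand of mm10. The last 30 bases of that exon are in lower case, and the coding bases that follow are in capitals, to the stop codon in the 4 truncated forms and for the first 75 bases in the 2 long forms:
Homer1-204: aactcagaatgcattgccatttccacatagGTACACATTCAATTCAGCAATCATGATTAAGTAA
Homer1-207: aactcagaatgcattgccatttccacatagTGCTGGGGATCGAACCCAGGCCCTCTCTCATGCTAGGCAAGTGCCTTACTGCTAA
Homer1-205: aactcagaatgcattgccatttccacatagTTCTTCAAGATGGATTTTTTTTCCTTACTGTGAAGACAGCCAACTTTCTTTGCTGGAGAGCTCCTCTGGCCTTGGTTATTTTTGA
Homer1-206: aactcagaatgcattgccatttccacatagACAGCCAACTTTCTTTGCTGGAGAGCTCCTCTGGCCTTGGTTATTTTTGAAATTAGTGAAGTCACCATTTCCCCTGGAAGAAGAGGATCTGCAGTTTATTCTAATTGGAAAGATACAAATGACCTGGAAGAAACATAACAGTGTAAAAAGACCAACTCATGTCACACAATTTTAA
Homer1-203: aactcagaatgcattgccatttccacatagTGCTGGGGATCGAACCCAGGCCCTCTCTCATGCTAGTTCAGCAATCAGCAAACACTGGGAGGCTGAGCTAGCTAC
Homer1-202: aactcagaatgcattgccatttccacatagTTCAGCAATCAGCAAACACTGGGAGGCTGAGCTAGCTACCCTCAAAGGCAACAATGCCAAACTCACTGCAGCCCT

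Homer1-204, with 186 codons, reads on from exon 5 into the intron and stops after 31 more coding bases, the structure known as Homer1a. Homer1-207, with 193 codons, splices to a cassette exon at chr13:93386345, runs past the end of that exon and stops after 52 coding bases. Homer1-205 and Homer1-206, with 203 and 233 codons, splice to another terminal exon, from chr13:93366243 and chr13:93366278. Homer1-203, with 366 codons, takes the cassette exon as a unit of 36 bases and goes on to the coiled-coil exons, as in the form known as Homer1c. Homer1-202, with 370 codons, skips the cassette exon, goes straight to the tail from chr13:93387524 and opens with a first exon of its own.

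**Figure D1:**
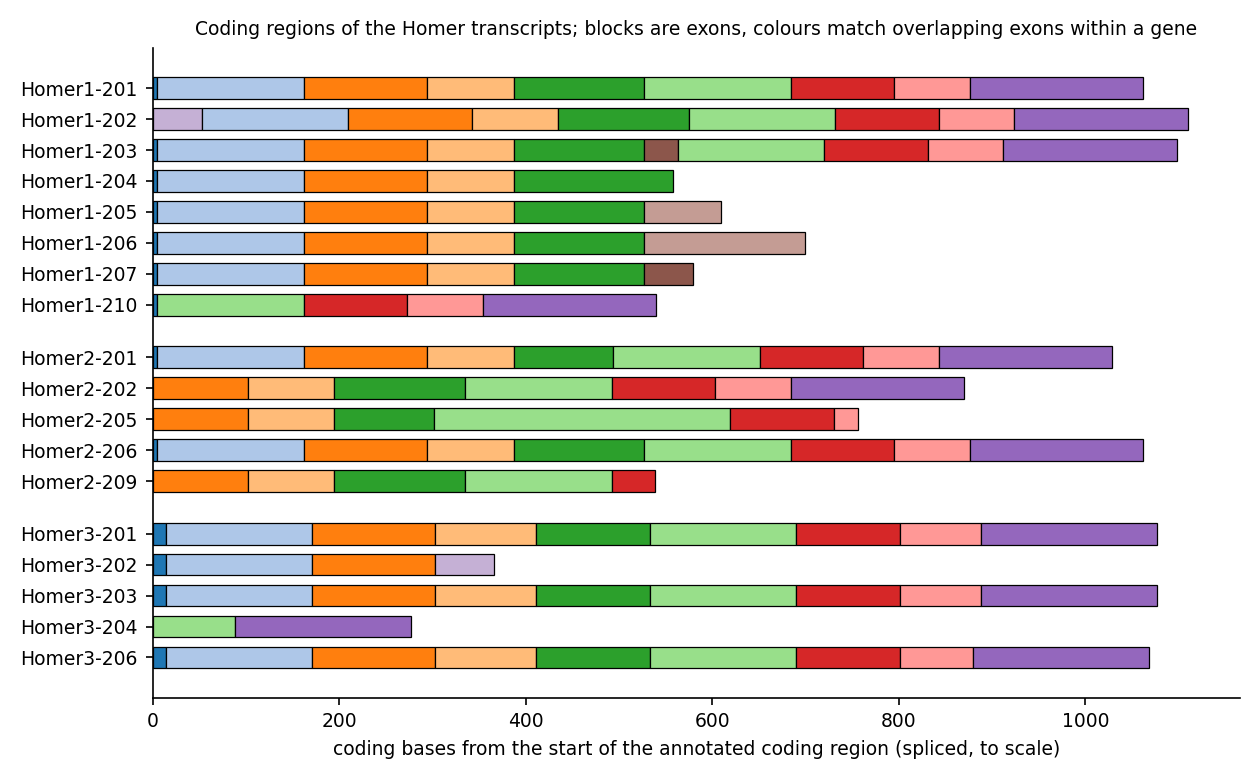
Spliced coding regions of the Homer transcripts with an annotated coding region, drawn to scale in coding bases from the start of each (horizontal axis), with 1 bar for each transcript, blocks for exons and colours that match overlapping exons within a gene. Homer1-208, Homer1-209 and Homer1-211 are left out, and Homer1-204 to Homer1-207 end after the exons of the head while Homer1-210 holds those of the tail.

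At the gene level Homer1 was the highest of the family in both libraries. Levels are in TPM, a count divided by transcript length and by the library's sum and put on the same total in each library, which allows genes to be compared. Homer1, at chr13:93299635-93405129 on the plus strand, had 75.6 TPM in replicate 1 and 76.8 TPM in replicate 2 (76.2 ± 0.877 TPM), from 5431 and 6446 expected counts. Homer2, at chr7:81600481-81707527 on the minus strand, had 42.2 and 37.1 TPM (39.7 ± 3.60 TPM), from 4427 and 4600 expected counts. Homer3, at chr8:70282827-70294361 on the plus strand, had 36.6 and 33.7 TPM (35.2 ± 2.08 TPM), from 1356 and 1620 expected counts. Homer1 was 1.79 and 2.07 times Homer2 and 2.06 and 2.28 times Homer3, and its range did not overlap theirs. The ranges of Homer2 and Homer3 lay side by side without overlap, but the deposited TPM intervals overlapped in both libraries, with 39.4 to 46.0 against 33.4 to 39.6 in replicate 1 and 34.7 to 40.6 against 31.2 to 36.4 in replicate 2.

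Among 22028 protein-coding genes, Homer1 ranked 1250 by mean TPM, Homer2 2731 and Homer3 3121. The order of Homer2 and Homer3 depended on the table in replicate 2. In the kallisto table, summed over transcripts, Homer1 had 137 and 135 TPM, Homer2 70.5 and 62.4 TPM, and Homer3 68.9 and 65.1 TPM, so that Homer2 was 1.02 times Homer3 in replicate 1 and 0.960 times in replicate 2. The RSEM table gave 1.15 and 1.10. The kallisto levels were higher for all 3 genes, and that table also put more of its TPM into nuclear protein-coding genes, 73.3% and 73.8% against 44.0% and 44.6% in the RSEM table. Rescaled over those genes alone, Homer1 had 171.6 and 172.1 TPM by RSEM and 186.8 and 182.8 TPM by kallisto.

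**Figure D2:**
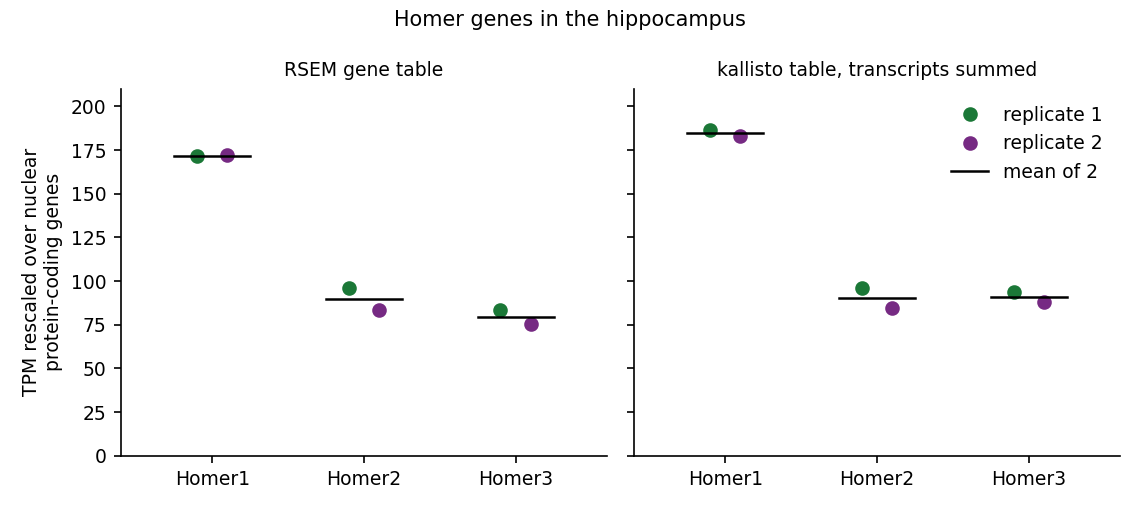
Level of each Homer gene in TPM rescaled over nuclear protein-coding genes (vertical axis), in the RSEM gene table (left) and in the kallisto table (right), with a point for each replicate and a line at the mean of 2. Homer1 lies at 171.6 to 186.8 in both tables, while Homer2 and Homer3 share the range below 100, and their order differs between the tables in replicate 2.

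Of the family's summed TPM, Homer1 made up 50.5% ± 2.19, Homer2 26.2% ± 1.55 and Homer3 23.3% ± 0.637. Expected counts, in which long transcripts weigh more, gave 49.7%, 37.9% and 12.4%. The difference sits in Homer2 and Homer3, whose transcripts differ in length. Homer2-202 is 10982 bases long, with a last exon of 9961 bases, and took 3662 and 3760 of the expected counts of Homer2. Homer3-203 is 2445 bases long.

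Homer1 transcripts that end before the coiled coil and those that reach it were present at similar levels. The Homer1-207 form was the highest, at 22.2 and 24.5 TPM, or 30.6% ± 1.76 of the gene's TPM. Homer1-203 followed at 18.7 and 19.8 TPM (25.2% ± 0.805), then Homer1-202 at 14.8 and 16.2 TPM (20.3% ± 1.00). The Homer1a structure, Homer1-204, had 13.9 and 12.9 TPM (17.6% ± 1.12), below the other 3 in both libraries. By expected counts, not divided by its length of 5713 bases, it was the highest, with 28.7% of the gene against 24.8% for Homer1-202, 21.7% for Homer1-203 and 21.1% for Homer1-207. Homer1-206 had 4.86 and 2.28 TPM, Homer1-205 0.340 and 0.560 TPM, and the non-coding Homer1-212 0.1 and 0.08 TPM. Homer1-201, a long form of 354 codons that lacks the cassette exon and shares the usual first exon, was listed at 0 in both tables and both libraries.

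The forms differ in how directly reads identify them. Homer1-204 has 4383 bases that no other Homer1 transcript covers, all of them in the read-through of exon 5. Its deposited TPM interval was narrow, 12.7 to 14.2 in replicate 1 and 11.9 to 13.2 in replicate 2. These bases lie in an intron that other forms splice out. The libraries are of total RNA, and how far unspliced Homer1 RNA adds reads there was not tested. Homer1-202 has 1666 bases of its own, made up of its first exon of 327 bases and the end of its last exon, past chr13:93403790. Homer1-207 has 709 own bases. Some lie at the start of its first exon, before the start of Homer1-206 at chr13:93304102. The others lie past the end of the cassette exon at chr13:93386380, also in an intron that other forms splice out. How far unspliced RNA adds reads to these was likewise not tested. Homer1-203 and Homer1-206 have none. Reads across their splice junctions could still identify them, and how many did was not tested. Their levels otherwise rest on how the programs shared reads. For Homer1-206 the interval was 3.08 to 5.87 TPM in replicate 1 and 0.693 to 3.24 TPM in replicate 2, wide enough to overlap. The level of these intervals is not given in the file headers.

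The cassette exon also carries sequence that other genes hold. Its bases 3 to 18, ctggggatcgaaccca, were found on either strand in 15 of 141767 annotated transcripts, from 8 genes. The same bases of exon 4 of Homer1, cgcagaaaagtttcag, were found in 8 transcripts of 1 gene. The part this plays in the levels of Homer1-203 and Homer1-207 was not tested.

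Both tables placed Homer1-207, Homer1-203, Homer1-202 and Homer1-204 as the highest 4 forms of Homer1 in that order. By kallisto, Homer1-207 had 36.9 and 39.5 TPM, Homer1-203 23.8 and 26.3 TPM, Homer1-202 22.8 and 23.7 TPM, and Homer1-204 20.5 and 18.8 TPM. The tables parted on Homer1-210, a form of 779 bases and 180 codons that lacks exons 2 to 5 and so holds the tail without the EVH1 domain. It was listed at 0 by RSEM in both libraries and at 18.3 and 16.2 TPM by kallisto, from 126 and 133 estimated counts. No base of it is its own within the gene.

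Transcripts were also grouped by coding length, with long forms at 80% or more of the gene's longest coding length and short forms below 60%. Short Homer1 forms summed to 37.1 and 38.5 TPM and long forms to 33.5 and 36.0 TPM. The ratio of short to long was 1.11 and 1.07 (1.09 ± 0.0286). By kallisto the ratio was 1.70 and 1.53 (1.61 ± 0.121), with Homer1-210 counted as short by its length although it has no head. When transcripts were grouped by structure instead, a grouping chosen after seeing the data, the 4 head-only forms over the 3 forms with head and tail gave 1.23 and 1.12 by RSEM and 1.41 and 1.26 by kallisto. Head-only forms outnumbered forms with head and tail in both libraries and both tables, and the margin was larger in replicate 1 each time. This grouping leaves out 4 coding forms that lack part of the head or tail, at 0.730 and 0.550 TPM by RSEM and 22.1 and 19.8 TPM by kallisto. By kallisto, all coding forms with the common last exon summed to 68.7 and 69.8 TPM, against 65.8 and 62.9 TPM for head-only forms. By RSEM they summed to 34.2 and 36.5 TPM, against 41.3 and 40.2 TPM.

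**Figure D3:**
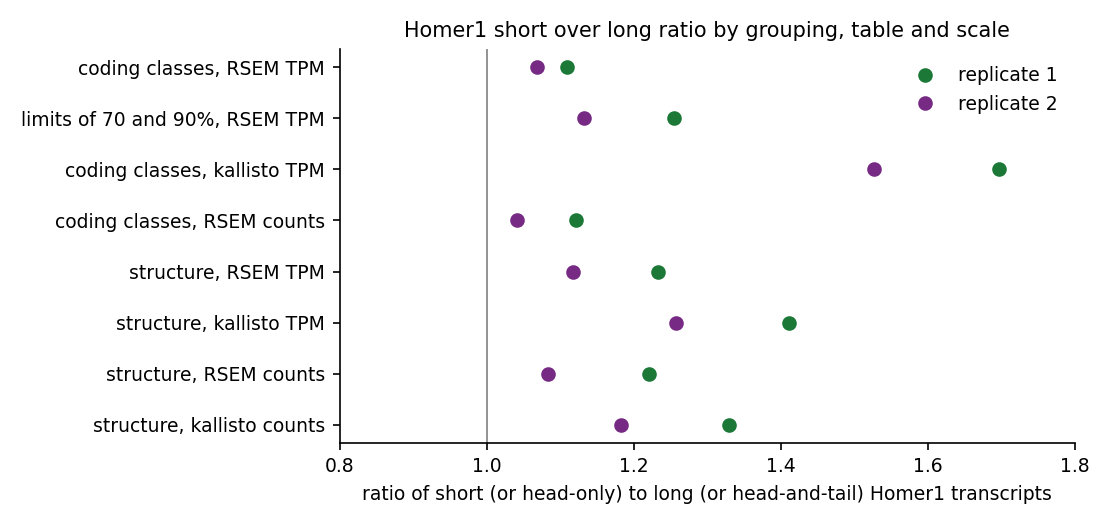
Ratio of short to long Homer1 transcripts, or of head-only to head-and-tail transcripts (horizontal axis, from 0.8), for each grouping, table and scale (rows), with a point for each replicate. All points lie above 1, and the coding classes in the kallisto table stand apart at 1.53 and 1.70.

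Within Homer1, 79.6% ± 0.980 of TPM was listed for the 10 transcripts that start in the usual first exon. Another 20.3% ± 1.00 was listed for Homer1-202, whose own first exon has 53 coding bases. The own bases of Homer1-202 also include the end of its last exon, so this share does not measure use of its first exon alone. Homer1 is known as a gene that neuronal activity switches on in part through the cyclic AMP response element, the core of which is TGACG. The 80 bases before the start of Homer1-207, the most upstream start in the usual first exon, are shown with each TGACG in capitals, from the RefSeq promoter table for GRCm38.p6 (chr13:93303677-93303756, plus strand):
Homer1 promoter: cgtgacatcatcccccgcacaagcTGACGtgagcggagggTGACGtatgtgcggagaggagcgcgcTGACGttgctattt

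The 3 copies begin at positions -56, -40 and -14 from the start. Windows of 300 bases, 250 before and 50 after each start, were searched for TGACG on both strands and for the full element TGACGTCA, which contains the core. Of 32851 windows in the table, 20.8% held at least 1 TGACG, 1.03% held 3 or more and 1.79% held TGACGTCA. The window that holds the 3 copies did not hold TGACGTCA. The window of the start of Homer1-202, at chr13:93308034, held neither, nor did both windows of Homer2 or the window of Homer3. A match in these letters is a description of the sequence and not a bound site.

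Homer2 was made up of a pair of forms at similar levels. Homer2-201, with 343 codons, had 19.7 and 16.4 TPM (45.4% ± 1.81 of the gene). Homer2-202, with 290 codons, a first exon of its own and a coding region that begins within the exon of 132 bases, had 16.2 and 14.1 TPM (38.2% ± 0.180). Both were lower in replicate 2, and they kept nearly the same proportion. Homer2-202 has 9285 own bases, and its deposited interval was 15.1 to 16.2 TPM in replicate 1 and 13.3 to 14.2 TPM in replicate 2. Most of these bases lie in its last exon, which runs to chr7:81600481, past the end of Homer2-201 at chr7:81609730. Reads there identify the long last exon, and not the first exon or the coding region of Homer2-202.

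The other known long form of Homer2, Homer2-206, with 354 codons, differs from Homer2-201 in its coding region by 33 bases at the start of exon 5, at chr7:81618683-81618715 on the minus strand, and has a first exon of 51 bases in place of 186. The stretch of 33 bases is in capitals below, with 30 bases on each side:
Homer2-206: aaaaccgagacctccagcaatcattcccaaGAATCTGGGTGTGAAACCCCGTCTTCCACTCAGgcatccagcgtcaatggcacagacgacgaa
Homer2-201: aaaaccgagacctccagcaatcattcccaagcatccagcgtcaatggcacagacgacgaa

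Homer2-206 was listed at 0 in replicate 1 and at 3.39 TPM in replicate 2 by RSEM, and at 0 in both by kallisto. Its deposited RSEM interval reached up to 2.74 TPM in replicate 1 and ran from 0.159 to 4.81 TPM in replicate 2. The annotation of Homer2-202 also carries the 33 bases. Short coding forms were rare. Homer2-209, an incomplete model of 179 codons, had 2.66 TPM in replicate 1 and 0 in replicate 2 by RSEM, and was at or near 0 by kallisto. The non-coding Homer2-208 had 0.590 TPM and 0 by RSEM but 16.8 and 15.2 TPM by kallisto, on 63.4 and 69.0 estimated counts over 581 bases.

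Homer3-203, with 359 codons, was the highest form of Homer3 in the RSEM table, at 21.4 and 16.8 TPM (54.2% ± 6.14 of the gene). Homer3-201, which begins within exon 2 of Homer3-203 and has the same number of codons, had 2.94 and 9.70 TPM. The rise of one between libraries went with a fall of the other, and the long forms together had 24.4 and 26.7 TPM. The deposited intervals of Homer3-201 overlapped, from near 0 to 10.6 TPM in replicate 1 and from 3.14 to 19.1 TPM in replicate 2, and neither transcript has a base of its own.

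Homer3-206, with 356 codons, differs from Homer3-203 in its coding region by 9 bases at the start of exon 9, at chr8:70291517-70291525 on the plus strand, and has a first exon of 274 bases in place of 102. The 9 bases are shown in capitals with 30 bases on each side:
Homer3-203: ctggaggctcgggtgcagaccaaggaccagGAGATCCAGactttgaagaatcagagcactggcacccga
Homer3-206: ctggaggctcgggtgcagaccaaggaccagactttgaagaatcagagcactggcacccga

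RSEM listed Homer3-206 at 0 and 0.230 TPM, and kallisto at 13.5 and 16.4 TPM, so the tables disagreed on this form. By kallisto, Homer3-201 was at 0.368 and 0.0168 TPM and Homer3-203 at 22.6 and 22.0 TPM. Short coding forms of Homer3 summed to 3.17 and 1.14 TPM by RSEM, or 0.130 and 0.0427 of the long forms, against 1.11 and 1.07 in Homer1. By kallisto that ratio of Homer3 was 0.303 and 0.129. The short class of Homer3 holds 2 forms. Homer3-202, with 122 codons, had 1.48 and 0.190 TPM by RSEM and 11.1 and 4.94 TPM by kallisto. Homer3-204, an incomplete model of 92 codons, had 1.69 and 0.950 TPM by RSEM and 0 by kallisto. It begins within the tail exon of 157 bases and so holds no head, unlike the leading short forms of Homer1. The 3 forms with a retained intron, Homer3-205, Homer3-207 and Homer3-208, summed to 9.08 and 5.82 TPM, of which Homer3-207 had 5.55 and 3.56 TPM, and to 21.3 and 21.8 TPM by kallisto. The deposited tables do not state how strand was used in counting. Ddx49, an RNA helicase gene at 19.0 and 22.3 TPM, lies on the other strand. Its span, introns included, covers all 1387 bases of the last exon of Homer3-203. The part of Ddx49 in the Homer3 level was not tested. The span of the antisense gene Gm44570, which had 0 counts in both libraries, covers 525 exon bases of Homer2.

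**Figure D4:**
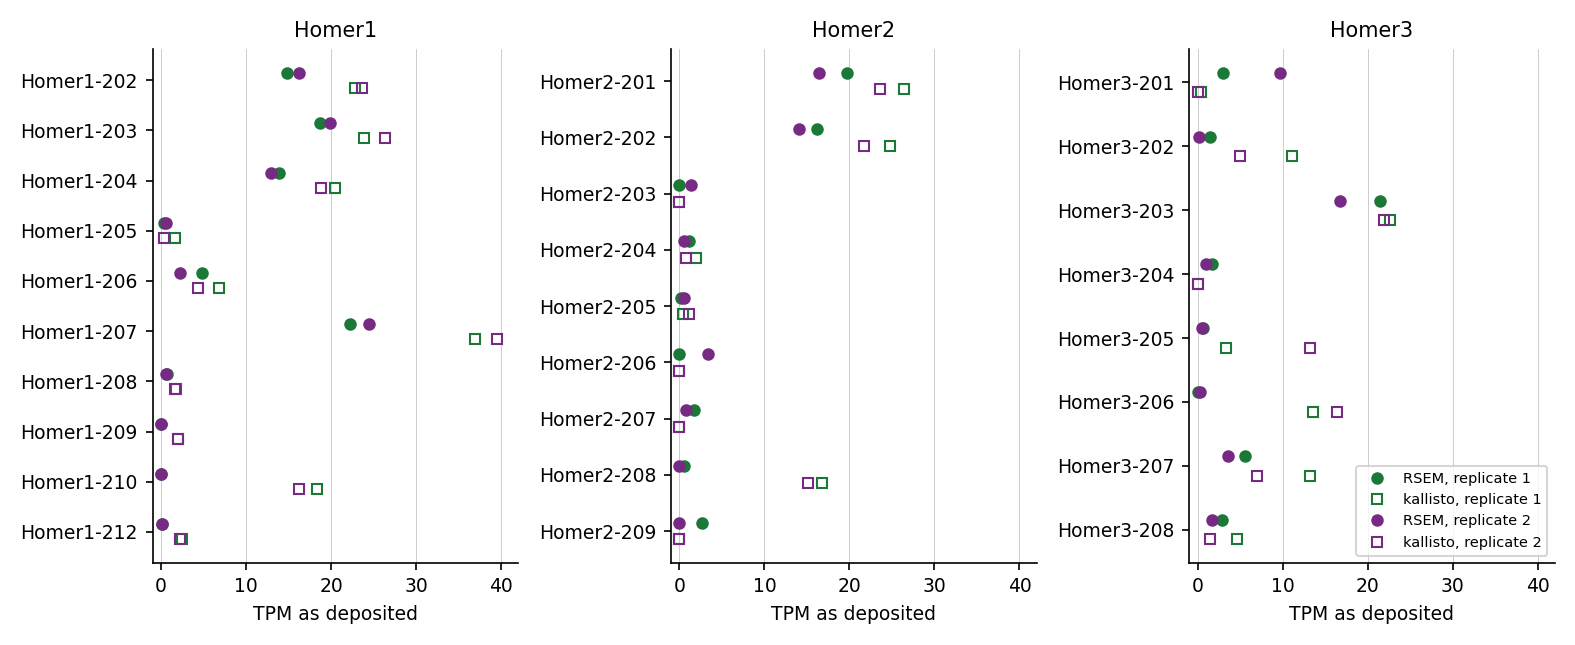
TPM of each Homer transcript (horizontal axis) with a mean of at least 0.1 in either table, in 3 panels by gene, with filled circles for RSEM and open squares for kallisto and colours for the replicate. The leading forms of Homer1 and Homer2 sit at like positions in both replicates, while Homer1-210, Homer2-208 and Homer3-206 are near 0 by RSEM and above 13 by kallisto.

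The replicates lay close together at the gene level. Scaled by TMM, a factor that aligns most genes of a pair of libraries, the log2 ratio of replicate 2 to replicate 1 was 0.06 for Homer1, -0.13 for Homer2 and 0.07 for Homer3. The 95% counting intervals were 0.01 to 0.11, -0.19 to -0.07 and -0.04 to 0.17, and cover counting error only. None of the 3 was over 2-fold apart, and 0.778% of the 12719 genes that averaged 100 or more expected counts were. Of the 9 Homer transcripts that reached 100 in the RSEM table, 1 was over 2-fold apart, Homer3-201 with a log2 ratio of 1.84, against 5.32% of all such transcripts. Homer1-206, at -0.98, lay just inside that limit.

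Of the 10 Homer transcripts that reached 100 in the kallisto table, none was over 2-fold apart, against 6.37% of all. At a minimum of 10, 6 of 20 in the RSEM table and 5 of 21 in the kallisto table were, against 19.1% and 18.5% of all. All 4 leading Homer1 forms stayed between 0.01 and 0.25 in log2 ratio by RSEM. Homer1-204, the activity-induced structure, was at 0.01, the lowest of the 4, with an interval of -0.09 to 0.11.

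RNAs of Homer partners and of genes linked to them were mostly well expressed in the same libraries. Of 22028 protein-coding genes, 36.8% had a mean of 10 TPM or more, and their median was 3.42 TPM. Scaffolds linked to Homer led: all 8 reached 10 TPM, 5 were above Homer1, and the median was 119 TPM. Dlg4, which encodes PSD-95, had 378 and 384 TPM, and Shank1, a direct partner, 285 and 264 TPM. Shank3 had 113 and 109 TPM and Shank2 58.1 and 53.1 TPM. Frmpd4, also called Preso1, was the lowest at 19.9 and 19.6 TPM.

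Of the 6 genes of group I metabotropic receptor signalling, 5 reached 10 TPM. Grm5, the receptor mGluR5, had 107 and 103 TPM, above Homer1 in both libraries. Gnaq, the G protein alpha subunit that couples these receptors to phospholipase C, had 89.6 and 88.2 TPM. Plcb1, a phospholipase C, had 63.3 and 60.9 TPM, and Plcb4 was the lowest at 7.38 and 8.08 TPM.

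Calcium release channels were uneven. Itpr1, an IP3 receptor, had 110 and 104 TPM, while Itpr3 had 0.900 and 0.830 TPM. Ryr2, a ryanodine receptor, had 106 TPM in replicate 1 and 76.5 TPM in replicate 2, above Homer1 in the first and just below it in the second. In all, 3 of these 6 genes reached 10 TPM. Of 8 plasma membrane channels and their sensors, 7 did, and none was above Homer1. The highest by mean was Cacna1c, an L-type calcium channel, at 36.9 and 29.1 TPM, with Stim1, the calcium sensor of the endoplasmic reticulum, above it in replicate 2 at 29.7 TPM.

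All 6 other ligands reached 10 TPM. Agap2, also called PIKE, was the highest at 357 and 353 TPM. Drebrin, from Dbn1, had 169 and 156 TPM. Dnm3, a dynamin that anchors endocytic zones through Homer, had 35.3 and 30.1 TPM.

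Genes that neurons switch on with activity alongside Homer1a were lower than the Homer1 gene as a whole. Of 9, 6 reached 10 TPM and none was above Homer1. The Homer1a structure alone, Homer1-204 at 13.9 and 12.9 TPM, lay below those 6 and above Fosb, Npas4 and Fos in both libraries. Arc, a regulator of receptor endocytosis, was the highest at 43.5 and 52.8 TPM, and Egr1, a transcription factor, had 38.8 and 43.3 TPM. Fosb was the lowest at 2.21 and 2.34 TPM, with Npas4 at 2.43 and 4.59 TPM and Fos at 4.54 and 6.66 TPM. All 9 were higher in replicate 2 than in replicate 1 in TPM and on the TMM scale, on which their median log2 ratio was 0.32 and that of all 12719 genes 0.04, with 60.7% of all genes higher. With scaling to the spike-ins, 5 of the 9 were higher, against 9.51% of all genes. The log2 ratio of Homer1-204 was 0.01 on a separate TMM scale, computed over transcripts. On that scale the median of all RSEM transcripts averaging 100 or more expected counts was 0.11.

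**Figure D5:**
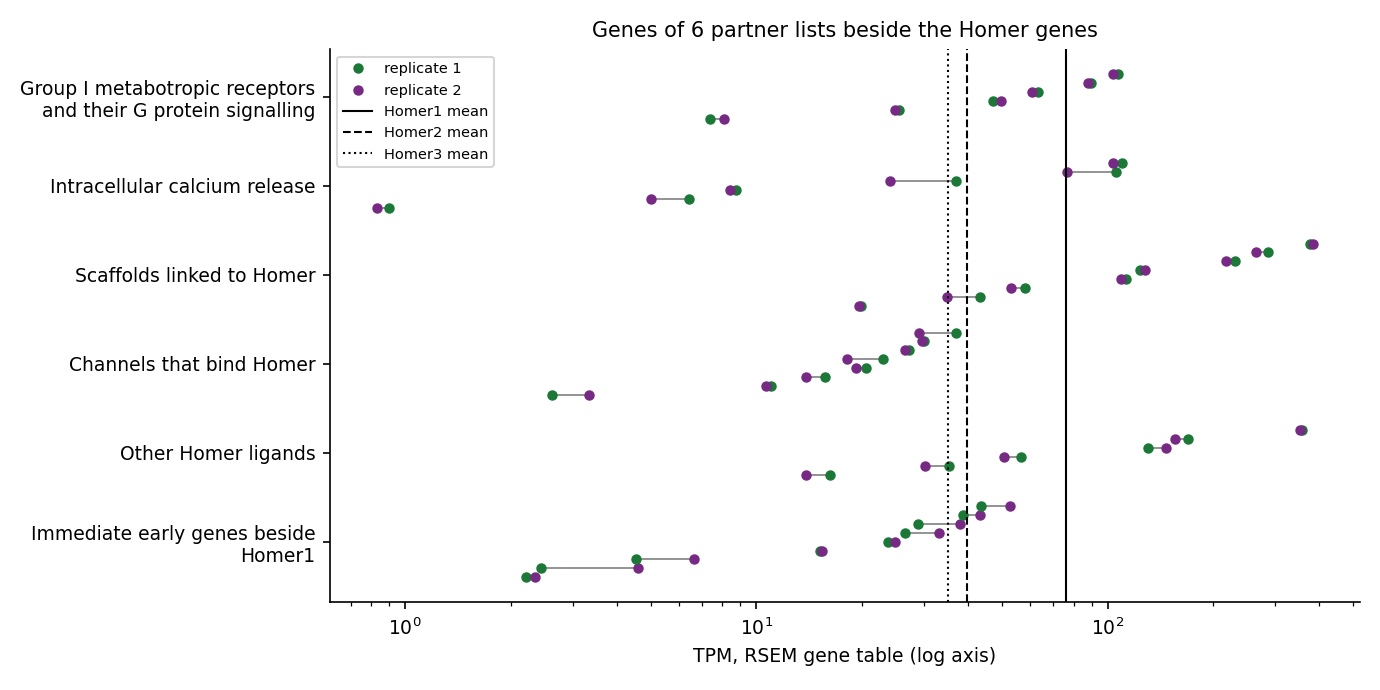
TPM of the 43 listed genes in the RSEM gene table (horizontal log axis) in 6 lists. A point stands for each replicate, joined by a line, with vertical lines at the means of Homer1, Homer2 and Homer3. Dlg4 and Agap2 lie highest, Itpr3 lowest, and no gene of the lists of plasma membrane channels and of immediate early genes lies right of the Homer1 line.

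The protein-coding genes nearest in level to Homer1, by distance of log2(TPM + 0.1) over the 2 libraries, were Msl1, Tmem106b and Cox7a2l, at a distance of 0.0191 to 0.0237. For Homer2 they were Jmjd1c, Epas1 and Sec61a1, and for Homer3 Sgsm2, Mcoln1 and Zcrb1. With 2 libraries this says only that their levels were alike.

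The libraries held 30635891 and 35713471 expected counts in annotated genes. Markers of hippocampal neurons were present, from Wfs1 and Fibcd1 of field CA1 at means of 77.0 and 53.7 TPM to Prox1 of dentate granule cells at 47.1 TPM, and glial markers were high, with Mbp of oligodendrocytes at 950 TPM and Slc1a2 of astrocytes at 914 TPM. The cerebellar markers Pcp2 and Gabra6 were at 0.5 and 0.145 TPM. In bulk tissue, fewer cells that use a Homer gene and less of its RNA per cell cannot be told apart.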

How the data were processed

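Per the labels, the samples were 2 libraries of total RNA from 1 group, to which ERCC spike-ins were added, from a profile named for stranded libraries depleted of ribosomal RNA. Per the deposited text notes, the tables refer to mm10 and GENCODE M21. Per the file headers, the gene table and 1 transcript table have the columns of RSEM and the other transcript table those of kallisto. Their versions were not given in the sources used here. The authors deposited expected counts, which share out reads that match several features, and TPM values, which divide them by an effective length (for long transcripts, 99 bases under the transcript length in RSEM, and 349 and 343 bases under it in kallisto). Per the file headers, the deposited RSEM tables also hold a posterior SD of the count and the bounds of a TPM interval (a signal on the TPM scale). The deposited IsoPct column, a percent of the gene, was recomputed here from TPM as each transcript's share.

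Transcripts were matched to the annotation by identifier, and all 29 were found. Replicate ratios used expected counts rounded to whole numbers, TMM factors in edgeR 4.0.16 (R 4.3.3) and a prior count of 0.5. TMM factors were computed apart for genes and for transcripts. The step was checked on simulated data. Counting intervals are 95% and cover counting error only, and a count of 0 allows up to 3 counts. Named were the 3 genes, all of their transcripts with a mean of 0.1 TPM or more in either table, the highest and lowest member of each list, and the 3 nearest protein-coding genes by level. Some list genes that this rule takes are not reported here. Other list genes and the markers were named by role. The members and the 6 lists were chosen with earlier results of these data known. Alternatives were the kallisto table, other denominators, class limits, scalings with DESeq2 1.42.0 size factors, deposited TPM or spike-ins, count minimums, and each replicate left out. Reads were not assigned to the parental genomes of the hybrid. Python 3.11.15, pandas 2.3.3, numpy 2.4.6 and matplotlib 3.10.9 did the rest. Levels rest on 2 samples, and n = 2 limits the SD.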

Additional observations from a re-analysis of the deposited data

How the results depend on the processing

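Levels moved with the denominator of TPM. For Homer1, Homer2 and Homer3 the means were 135.9, 66.5 and 67.0 TPM by kallisto, 171.9, 89.5 and 79.3 TPM by RSEM over nuclear protein-coding genes, and 184.8, 90.4 and 91.1 TPM by kallisto over those genes, the last of these chosen after seeing the data. The share of the family moved to 37.9% (expected counts) and 24.6% (kallisto) for Homer2 and to 12.4% and 24.9% for Homer3, while that of Homer1 stayed within 1 SD. The short over long ratio of Homer1 was 1.19 with class limits of 70 and 90%, 1.61 by kallisto and 1.17 by structure, a grouping chosen after seeing the data.

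Scaling to spike-ins moved the median log2 ratio of all 12719 genes from 0.04 to -0.17, and those of Homer1, Homer2 and Homer3 to -0.15, -0.34 and -0.14, so Homer1 and Homer3 changed sign. With deposited TPM the ratio of Homer3 was -0.12. The causes were not tested. The share of genes over 2-fold apart was 5.13% at a minimum count of 10 and 23.5% with no filter. Over transcripts, added after seeing the data, it was 5.32% (RSEM) and 6.37% (kallisto) at 100 and 19.1% and 18.5% at 10. Of the calcium release genes, 83.3% reached 10 TPM by kallisto against 50% by RSEM. Of 27 transcript shares, 19 moved by more than 1 SD in the kallisto table. Leaving out either replicate moved no result by more than 1 SD, which 2 replicates do not allow. No paired analysis was possible because there is 1 group. How depth limits the transcript levels was not tested.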
